A study of Homo sapiens with 9 samples.

Results

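Cell cycle and mitosis genes were followed through the response of H295R cells to 2 agents. H295R cells come from a human carcinoma of the adrenal cortex and secrete steroids. The 45 genes were listed by symbol and matched in the probe annotation of the array, and all 45 were measured among 19775 genes in all. Each gene was read by its single-symbol probe set with the highest mean over the 9 arrays. They were split by textbook role and usual time of peak expression into 23 genes of G1 and the entry into S phase (G1/S) and 22 genes of G2 and mitosis (G2/M). The cells had been given DMSO, the vehicle, or 100 nM angiotensin II, the peptide hormone that drives aldosterone secretion, or 100 nM torcetrapib (test compound CP-529414), a small molecule that blocks cholesteryl ester transfer protein. All cells were taken at 3 h, with 3 arrays for each group. The labels name 1 cell line and leave unsaid whether each array had a culture of its own. The p-values therefore rest on the spread among these arrays, and that spread may be technical.

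The cell cycle is driven by cyclin-dependent kinases (CDKs), which act when bound to a cyclin. D-type cyclins with CDK4 and CDK6, and E-type cyclins with CDK2, carry a cell from G1 into S phase by releasing E2F transcription factors from the retinoblastoma protein. E2F targets include the MCM helicase subunits, PCNA and the enzymes that make deoxynucleotides. Cyclins A and B with CDK1, the Aurora and Polo-like kinases, mitotic kinesins and the spindle checkpoint then drive and guard mitosis, and most of their genes peak in G2 and M through the CHR element of their promoters. In the adrenal cortex angiotensin II is known as a growth signal as well as a signal for steroid secretion.

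The values are log2 expression after robust multi-array averaging, as deposited, and 3 arrays for each group limit the precision. The adrenocortical label could be checked on 8 measured markers, among them the steroidogenic enzymes CYP11A1 and CYP17A1: 7 of the 8 lay above the median gene (6.73). Of 10 markers of medullary, immune, endothelial or fibroblast cells 2 did, CHGA and COL1A1, and 0 of the 10 were called against DMSO with either agent by limma (2 and 0 at an unadjusted p of 0.05). Of the 8 adrenocortical markers 3 were called higher than with DMSO by angiotensin II and 1 by torcetrapib, beside 3.36% and 0.592% of all genes. Neither agent called any of the 8 lower than with DMSO. In torcetrapib minus angiotensin II, 1 of the 10, COL3A1, and 4 of the 8 were called lower, beside 6.68% of all genes. A measure of RNA integrity differed between the groups. This index, the log2 difference between the 5′ and 3′ control probe sets of ACTB and GAPDH, had a mean of -0.50 for the vehicle arrays (SD 0.22), -0.62 for angiotensin II (SD 0.02) and -0.24 for torcetrapib (SD 0.03), 3 arrays each. The torcetrapib arrays lay above all others (two-sided exact permutation test, p = 0.1 against each group, the smallest that 3 against 3 arrays can give). DMSO replicate 2, at -0.28, lay just under the lowest torcetrapib array, and DMSO replicate 1, at -0.72, had the lowest of all. Sums of RNA from a culture cannot tell fewer cells in a phase from less RNA per cell.

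The cell cycle genes were well expressed and moved little. By its mean over the 9 arrays, 44 of the 45 lay above a dim limit of 4.87, set from the low end of all genes. Most genes pass that limit by definition, as did 8 of the 10 markers of other cell types. The lowest of the 44 members lay at 7.48, above the median gene (6.73). CCND1, the cyclin D1 gene, lay under the dim limit at 4.75. The median SD among the DMSO arrays was 0.07 over the members and 0.09 over all genes. With angiotensin II the 95% interval of the change stayed within 1.5-fold either way for 45 of 45 members, where 96% of all genes did, and with torcetrapib for 44 of 45, where 98.2% did. The exception was LMNB1. Intervals within 1.2-fold were found for 33 of 45 with angiotensin II and 36 of 45 with torcetrapib, against 48.5% and 50% of all genes. Between the agents 44 of 45 intervals lay within 1.5-fold (94.4% of all genes) and 32 of 45 within 1.2-fold (41.1%). For most members, then, the arrays bound the change closely in both directions.

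**Figure D1:**
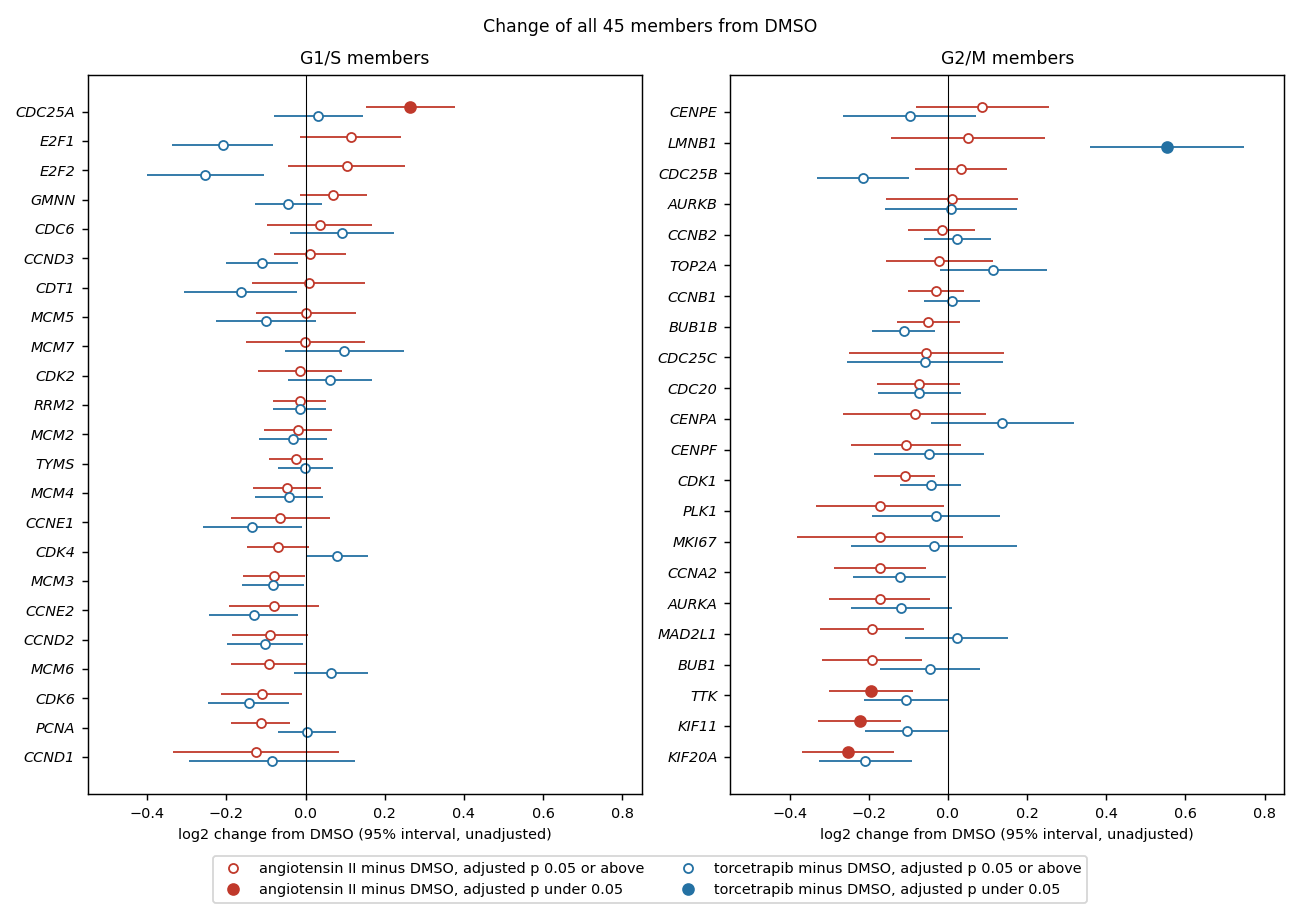
Change of each of the 45 members from DMSO on the log2 scale with its unadjusted 95% interval (3 arrays for each group), for the 23 G1/S members and the 22 G2/M members, ordered by the change with angiotensin II. Filled points passed an adjusted p of 0.05: CDC25A, KIF11, KIF20A and TTK with angiotensin II and LMNB1 with torcetrapib.

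The promoters of the called genes show which cell cycle elements they carry. RefSeq windows (GRCh38.p14) from 250 bases before to 50 after the annotated start were held for 37 of the 45 members, and those of 6 members called or nearly called in the comparisons that follow are printed 5′ to 3′ on the gene's strand. Capitals mark matches on either strand to the CCAAT box (CCAAT), the CHR element (TTTGAA), the E2F site (TTTCCCGC, TTTCGCGC, TTTGCCGC or TTTGGCGC) and the cyclic AMP response element CRE (TGACGTCA). KIF11 at chr10:92592880-92593179 (plus strand), KIF20A at chr5:138178862-138179161 (plus) and LMNB1 at chr5:126776373-126776672 (plus) stand beside CDC25A at chr3:48188368-48188667 (minus), E2F1 at chr20:33686336-33686635 (minus) and E2F2 at chr1:23531184-23531483 (minus).
KIF11: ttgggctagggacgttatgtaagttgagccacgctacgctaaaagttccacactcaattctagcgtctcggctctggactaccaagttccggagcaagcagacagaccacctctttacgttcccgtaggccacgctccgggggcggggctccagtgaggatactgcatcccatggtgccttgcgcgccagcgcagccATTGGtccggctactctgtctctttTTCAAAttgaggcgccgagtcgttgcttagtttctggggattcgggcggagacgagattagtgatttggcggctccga
KIF20A: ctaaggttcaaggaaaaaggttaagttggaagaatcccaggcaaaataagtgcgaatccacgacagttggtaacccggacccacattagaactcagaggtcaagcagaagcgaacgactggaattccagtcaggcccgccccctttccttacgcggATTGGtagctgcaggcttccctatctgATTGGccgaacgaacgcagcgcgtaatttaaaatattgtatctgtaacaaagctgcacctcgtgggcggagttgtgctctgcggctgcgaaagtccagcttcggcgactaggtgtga
CDC25A: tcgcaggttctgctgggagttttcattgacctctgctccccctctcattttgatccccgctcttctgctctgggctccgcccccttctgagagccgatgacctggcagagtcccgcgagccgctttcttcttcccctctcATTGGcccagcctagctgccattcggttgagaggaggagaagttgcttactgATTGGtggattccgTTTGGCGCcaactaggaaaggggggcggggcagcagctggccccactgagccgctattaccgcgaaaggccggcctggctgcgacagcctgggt
E2F1: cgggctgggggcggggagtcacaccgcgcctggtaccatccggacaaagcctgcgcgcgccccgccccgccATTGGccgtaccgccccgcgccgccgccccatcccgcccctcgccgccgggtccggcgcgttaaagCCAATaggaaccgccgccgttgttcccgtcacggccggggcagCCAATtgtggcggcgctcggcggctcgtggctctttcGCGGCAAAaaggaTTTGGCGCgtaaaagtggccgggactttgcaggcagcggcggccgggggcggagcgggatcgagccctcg
E2F2: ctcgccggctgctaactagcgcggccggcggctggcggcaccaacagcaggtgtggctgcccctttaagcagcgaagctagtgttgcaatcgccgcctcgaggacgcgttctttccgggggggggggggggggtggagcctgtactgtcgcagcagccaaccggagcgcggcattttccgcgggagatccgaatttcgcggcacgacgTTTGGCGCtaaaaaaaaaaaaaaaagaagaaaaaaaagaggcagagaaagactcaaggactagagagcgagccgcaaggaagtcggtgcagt
LMNB1: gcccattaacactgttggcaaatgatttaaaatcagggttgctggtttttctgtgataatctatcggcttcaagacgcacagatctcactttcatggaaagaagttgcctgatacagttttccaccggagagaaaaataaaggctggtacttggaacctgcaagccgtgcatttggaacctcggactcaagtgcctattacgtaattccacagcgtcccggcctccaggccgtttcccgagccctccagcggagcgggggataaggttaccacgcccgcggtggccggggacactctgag
KIF11 carried a CCAAT box from base -53 and a CHR element from base -28 relative to the start, and KIF20A carried CCAAT boxes from -94 and -67. CDC25A had CCAAT boxes from -110 and -58 and an E2F site from -44. E2F1 held 3 CCAAT boxes and E2F sites from -33 and -20, and E2F2 an E2F site from -42. No letters of these motifs were found in the LMNB1 window.

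Across the members the motifs followed the split by phase. An E2F site was found in 11 of 17 G1/S windows (64.7%) and 2 of 20 G2/M windows (10%), where 3.33% of all 27305 windows and 4.36% of the 15384 windows of measured genes held one. The CHR letters stood in 11 of 20 G2/M windows (55%) and in 0 of 17 G1/S windows, where 15.4% of all windows and 11.9% of those of measured genes held them. CCAAT boxes were found in 15 of 20 G2/M windows (75%) and 8 of 17 G1/S windows (47.1%), against 35.7% of all. CRE letters were held by 2 of 20 G2/M windows, those of CCNA2 and CENPE, against 1.98% of all. Overlapping matches were each counted, and 2 pairs of matches to different motifs overlapped. A match describes the letters only and was not tested for binding.

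**Figure D2:**
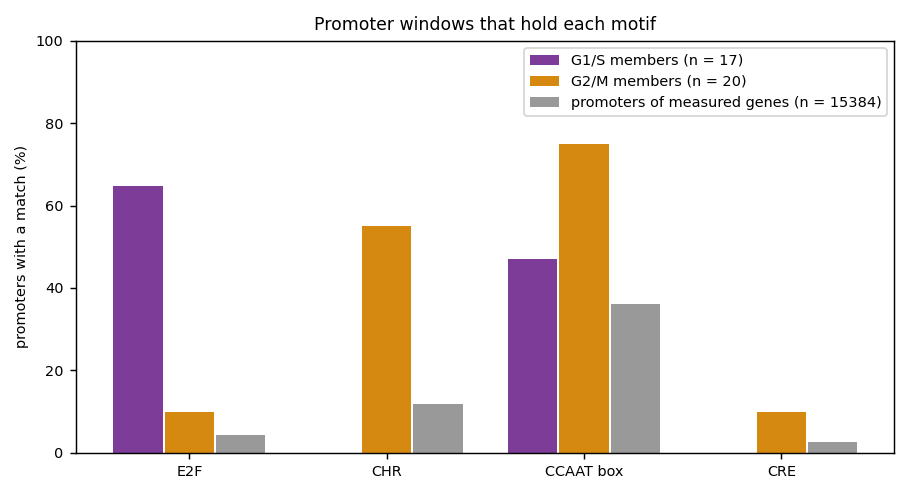
Share of promoter windows of 300 bases with at least 1 match to each motif on either strand, for 17 G1/S members, 20 G2/M members and 15384 windows of measured genes. E2F letters are found in 64.7% of G1/S windows and CHR letters in 55% of G2/M windows.

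With angiotensin II, 3 mitotic genes fell and 1 gene of S phase entry rose. KIF20A, KIF11 and TTK ended 1.19-fold, 1.17-fold and 1.14-fold lower than with DMSO, and CDC25A ended 1.2-fold higher. These were 4 of 45 members called by limma with Benjamini-Hochberg adjustment over all genes, or 8.89%, beside 6.12% of all genes. By direction, 1 of 45 rose where 3.36% of all genes did, and 3 of 45 fell where 2.76% did. The share of members called is thus near the background.

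CDC25A encodes a phosphatase that activates CDK2 at the start of S phase. It lay at 9.91, 9.88 and 10.04 on the DMSO arrays, at 10.20, 10.17 and 10.26 with angiotensin II and at 10.01, 9.98 and 9.93 with torcetrapib. All 3 angiotensin II arrays stood above the other 6, and the torcetrapib arrays overlapped those with DMSO. The log2 change with angiotensin II was 0.26 ± 0.05 (SE), with adjusted p = 0.00482 by limma. The gene has 3 probe sets, and the other 2 changed by -0.03 and 0.05, so the mean of all 3 gave 0.10 and no call (adjusted p = 0.43, range over the alternatives 0.000191 to 0.43).

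KIF20A encodes a kinesin needed for cytokinesis. On the DMSO arrays it had values of 9.39, 9.36 and 9.43, with angiotensin II 9.15, 9.09 and 9.18, and with torcetrapib 9.22, 9.21 and 9.12. Both treated groups lay under the DMSO arrays without overlap. Its change was -0.25 ± 0.05 with angiotensin II (limma adjusted p = 0.00943), a call that held in all 19 alternatives. With torcetrapib it was -0.21 ± 0.05 (adjusted p = 0.0829), and -0.23 with adjusted p = 0.0396 without DMSO replicate 2 (range 0.0166 to 0.763). Both comparisons share the DMSO arrays.

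KIF11 encodes the kinesin Eg5, which pushes spindle poles apart. Its values were 10.51, 10.67 and 10.58 with DMSO, 10.31, 10.34 and 10.43 with angiotensin II and 10.47, 10.48 and 10.49 with torcetrapib. The 3 groups did not overlap, and torcetrapib lay between the other two. The fall with angiotensin II was -0.22 ± 0.05 (limma adjusted p = 0.0103), and the change with torcetrapib was -0.10 (adjusted p = 0.379). The first call ended without angiotensin II replicate 1 (adjusted p = 0.0653, range 0.00039 to 0.0785).

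TTK encodes the spindle checkpoint kinase MPS1. It was measured at 10.36, 10.26 and 10.35 with DMSO and at 10.19, 10.04 and 10.16 with angiotensin II. All 3 torcetrapib arrays held the same value, 10.2174, so they add no spread to the fit. Its change with angiotensin II was -0.20 ± 0.05 (limma adjusted p = 0.0281). This was the least steady of these calls: it ended without DMSO replicate 1 or 3, angiotensin II replicate 2, or torcetrapib replicate 1 or 2 (adjusted p = 0.107, 0.105, 0.109, 0.0563 and 0.0501), and with the arrays centred on their medians (0.104, range 0.00682 to 0.123).

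Over all 22 G2/M members, these 3 included, 18 had a change below 0 with angiotensin II, and the median was -0.09, where 46.1% of all genes were below 0 and the median gene was at 0.01. At an unadjusted p of 0.05, 9 of 22 were lower and 0 higher (40.9%), beside 16.5% of all genes in either direction. The 4 with a change above 0 were CENPE (0.09), LMNB1 (0.05), CDC25B (0.03) and AURKB (0.01). Of those not called, BUB1, a kinase of the spindle checkpoint, lay at 9.42, 9.51 and 9.50 with DMSO and at 9.34, 9.16 and 9.34 with angiotensin II, which did not overlap (change -0.19 ± 0.06, limma adjusted p = 0.0754). MAD2L1, another checkpoint protein, changed by -0.19 (adjusted p = 0.0863) and CCNA2, cyclin A2, by -0.17 (adjusted p = 0.0839). The proliferation marker MKI67 changed by -0.17 ± 0.10 (adjusted p = 0.435) with wide scatter, from 9.22 to 9.69 within the angiotensin II arrays. Taken array by array, the median deviation of the G2/M members from their DMSO means was -0.10, -0.11 and -0.08 with angiotensin II, against -0.03, -0.03 and 0.04 on the DMSO arrays themselves. The DMSO values lie around 0 by construction, and they did not overlap those with angiotensin II. With torcetrapib the medians were -0.02, -0.06 and -0.10, which overlapped both groups. Of the 22, 15 had a change below 0 with torcetrapib, with a median of -0.05. Of all genes 60.9% were below 0 with torcetrapib, and the median gene was at -0.03.

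The G1/S members as a group stayed close to DMSO with angiotensin II. Of 23, 15 had a change below 0 and their median was -0.02. Apart from CDC25A none was called, and 3 were lower at an unadjusted p of 0.05. Changes of the MCM helicase subunits MCM2 to MCM7 ran from -0.09 (MCM6) to 0.00 (MCM5). The sliding clamp PCNA came closest to a call, with -0.11 ± 0.03 (limma adjusted p = 0.0692). Among the cyclins and kinases of G1, CCND1 had the widest interval, from -0.34 to 0.08 around -0.13, and lay among dim genes (4.95, 4.75 and 4.76 with DMSO). Its family members CCND2 and CCND3 changed by -0.09 and 0.01, CCNE1 and CCNE2 by -0.06 and -0.08, and CDK4 and CDK6 by -0.07 and -0.11.

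**Figure D3:**
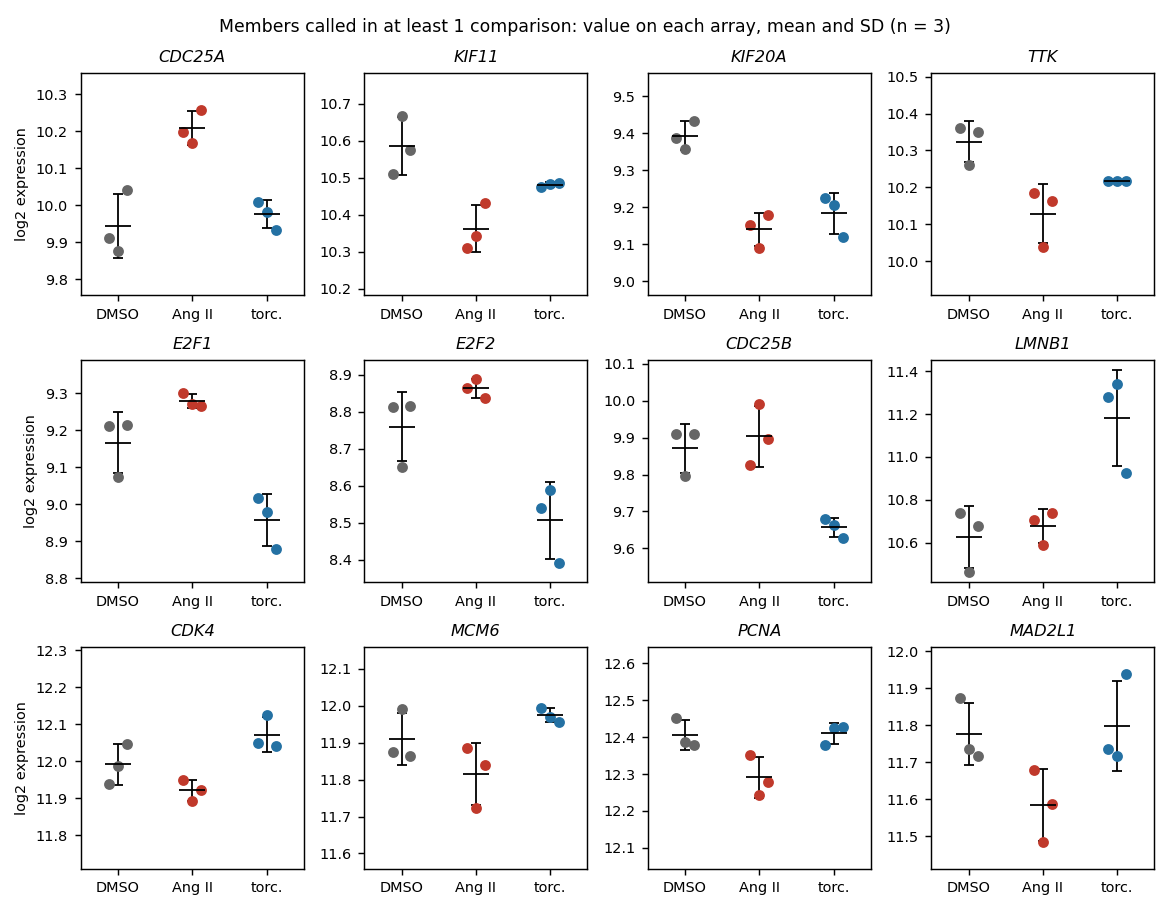
Log2 expression of the 12 members called in at least 1 of the 3 comparisons on each array, with the mean and SD of 3 arrays for DMSO, angiotensin II (Ang II) and torcetrapib (torc.). Axes do not start at 0 and span at least 0.6. Angiotensin II stands above DMSO in CDC25A and under it in KIF11, KIF20A and TTK, and torcetrapib stands above in LMNB1.

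With torcetrapib 1 member was called by its brightest probe set. LMNB1, which encodes lamin B1 of the nuclear envelope, rose 1.47-fold. It was the only one of the 45 called by limma, or 2.22%, beside 1.16% of all genes, and 0.592% of all genes were called higher and 0.566% lower. None of the 23 G1/S members was called (10 passed an unadjusted p of 0.05, 1 higher and 9 lower). Over all 45, 16 passed that unadjusted threshold (35.6%), beside 13.3% of all genes. Of the 23 G1/S members 16 had a change below 0, with a median of -0.04, where 60.9% of all genes were below 0. Array by array, their median deviation from the DMSO means was -0.0314, -0.0341 and -0.0927 with torcetrapib. On the DMSO arrays it was -0.0104, -0.0251 and 0.0385, without overlap. Over all genes the torcetrapib arrays were at -0.0206, -0.012 and -0.0383 and overlapped those with DMSO.

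LMNB1 lay at 10.74, 10.46 and 10.68 with DMSO, at 10.71, 10.59 and 10.74 with angiotensin II and at 11.28, 11.34 and 10.92 with torcetrapib. Every torcetrapib array was above the other 6, with replicate 3 well under its 2 companions. The change against DMSO was 0.55 ± 0.09 (limma adjusted p = 0.0061) and against angiotensin II 0.50 ± 0.09 (adjusted p = 0.00201). The index of RNA integrity was higher on the torcetrapib arrays too. With that index in the model the change against DMSO was 0.71 ± 0.11 (adjusted p = 0.00884). In all fits with the index, its slope rests mostly on the 3 DMSO arrays (SD 0.22, against 0.02 with angiotensin II and 0.03 with torcetrapib). The index did not overlap between the agents, so these fits cannot tell index and agent apart there. Calls kept or lost in them are therefore no test of RNA integrity. The LMNB1 call against DMSO ended without torcetrapib replicate 1 or 2 (adjusted p = 0.0598 and 0.0517) and without the intensity trend (0.116, range 0.000376 to 0.116). LMNB1 was read by 1 probe set, so no second probe set could be compared.

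After LMNB1, the largest changes with torcetrapib were in E2F2, CDC25B, E2F1 and KIF20A, and none of these passed. E2F1 and E2F2 encode E2F transcription factors that activate the genes of S phase, and both promoters hold E2F letters themselves, as printed above. E2F2 lay at 8.81, 8.65 and 8.81 with DMSO, at 8.86, 8.89 and 8.84 with angiotensin II and at 8.54, 8.59 and 8.39 with torcetrapib. E2F1 had 9.21, 9.07 and 9.22 with DMSO, 9.30, 9.27 and 9.27 with angiotensin II and 9.02, 8.98 and 8.88 with torcetrapib. For both genes the 3 groups did not overlap, with torcetrapib lowest and angiotensin II highest. Against DMSO the change of E2F2 was -0.25 ± 0.07 (limma adjusted p = 0.0969), while its other probe sets gave 0.30 and -0.03 and the mean of all 3 gave 0.0052, and that of E2F1 -0.21 ± 0.06 (adjusted p = 0.118). CDC25B, a phosphatase that starts CDK1 activation at mitosis, lay at 9.91, 9.80 and 9.91 with DMSO, at 9.83, 9.99 and 9.90 with angiotensin II and at 9.68, 9.66 and 9.63 with torcetrapib. Only the torcetrapib arrays stood apart, with a change of -0.21 ± 0.05 against DMSO (adjusted p = 0.0753). Without DMSO replicate 2 all 3 were called (E2F2 adjusted p = 0.0198, range 0.0162 to 1; E2F1 0.023, range 0.023 to 1; CDC25B 0.0181, range 0.0114 to 0.948), and CDC25B also without angiotensin II replicate 2 (0.0493). With the index in the model their changes were -0.16 ± 0.09, -0.12 ± 0.08 and -0.14 ± 0.07 (adjusted p = 1, 1 and 0.948).

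Set against each other, torcetrapib and angiotensin II differed in 9 of the 45 members. LMNB1, CDK4, MCM6, PCNA and MAD2L1 were higher with torcetrapib, and CDC25A, CDC25B, E2F1 and E2F2 lower. That is 20% of members, beside 11.3% of all genes; 5 of 45 were higher, where 4.61% of all genes were, and 4 of 45 lower, where 6.68% were. At an unadjusted p of 0.05 it was 17 of 45, beside 24.8% of all genes. The lower members were E2F1 with -0.32 ± 0.06 (limma adjusted p = 0.00243), E2F2 with -0.36 ± 0.07 (adjusted p = 0.0033), CDC25B with -0.25 ± 0.05 (adjusted p = 0.00826) and CDC25A with -0.23 ± 0.05 (adjusted p = 0.00926). A second probe set of E2F1 gave -0.34, while the other probe sets of E2F2 gave 0.22 and 0.05. These 4 calls held without each single array in turn. With the index in the model none was called, at -0.20 ± 0.10, -0.22 ± 0.12, -0.15 ± 0.09 and -0.20 ± 0.09 in E2F1, E2F2, CDC25B and CDC25A (limma adjusted p = 0.595, 0.631, 0.731 and 0.526, the highest over their alternatives but for E2F2 at 0.799 by the mean of its probe sets). The standard errors were wider in that model, and in CDC25A the difference moved little. The lowest over their alternatives were 2.85e-05, 5.69e-05, 0.00249 and 0.000307.

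The higher members changed by small amounts. CDK4, the kinase partner of D-type cyclins, lay at 11.94, 11.99 and 12.05 with DMSO, at 11.95, 11.89 and 11.92 with angiotensin II and at 12.05, 12.13 and 12.04 with torcetrapib. MCM6 was at 11.87, 11.99 and 11.86 with DMSO, at 11.89, 11.72 and 11.84 with angiotensin II and at 11.99, 11.97 and 11.96 with torcetrapib. The DMSO arrays overlapped at least one treated group in each, and the difference lay between the treated groups. PCNA had 12.45, 12.39 and 12.38 with DMSO, 12.35, 12.24 and 12.28 with angiotensin II and 12.38, 12.43 and 12.43 with torcetrapib. MAD2L1 had 11.87, 11.74 and 11.72, then 11.68, 11.48 and 11.59, then 11.74, 11.72 and 11.94 in the same order of groups. For these 2 genes the torcetrapib arrays overlapped DMSO and the angiotensin II arrays lay under both. The differences between torcetrapib and angiotensin II were 0.15 ± 0.04 in CDK4, 0.16 ± 0.04 in MCM6, 0.12 ± 0.03 in PCNA and 0.21 ± 0.06 in MAD2L1 (limma adjusted p = 0.0145, 0.0314, 0.0374 and 0.0349).

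None of these 4 calls held with the arrays centred on their medians (adjusted p = 0.0673, 0.0812, 0.117 and 0.0548 in CDK4, MCM6, PCNA and MAD2L1), and all 4 depended on single arrays. The CDK4 call ended without angiotensin II replicate 2 or torcetrapib replicate 2 (0.0549 and 0.0823, range 0.00235 to 0.708). That of MCM6 ended without angiotensin II replicate 2 or any 1 torcetrapib array (0.131, 0.12, 0.0861 and 0.0735, range 0.0141 to 0.899). That of PCNA ended without angiotensin II replicate 2 or 3 or any 1 torcetrapib array (0.139, 0.0833, 0.0624, 0.123 and 0.124, range 0.021 to 0.313). That of MAD2L1 ended without angiotensin II replicate 2 or 3 or torcetrapib replicate 1 or 3 (0.149, 0.0725, 0.0549 and 0.172, range 0.00153 to 0.242).

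The brightest and dimmest members of each phase were not called. TYMS, thymidylate synthase, lay at 12.72, 12.70 and 12.70 with DMSO, at 12.66, 12.63 and 12.76 with angiotensin II and at 12.70, 12.72 and 12.70 with torcetrapib. CDK1, the mitotic kinase, lay at 12.02, 12.04 and 11.97 with DMSO, at 11.97, 11.85 and 11.88 with angiotensin II and at 11.97, 11.96 and 11.97 with torcetrapib. The groups overlapped in both genes. The change of CDK1 with angiotensin II was -0.11, with an unadjusted 95% interval from -0.19 to -0.03. At the dim end CCND1 had 4.59, 4.75 and 4.74 with angiotensin II and 4.86, 4.75 and 4.60 with torcetrapib. CDC25C, a phosphatase of CDK1, had 7.48, 7.43 and 7.64 with DMSO, 7.38, 7.39 and 7.61 with angiotensin II and 7.57, 7.47 and 7.34 with torcetrapib. None of these 4 passed in any comparison (lowest limma adjusted p = 0.104, for CDK1 with angiotensin II). In all, 33 of the 45 members were called in no comparison.

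Other genes of the cell cycle were read from 5 lists. Of 90 further genes on them (CDK inhibitors, RB and E2F regulators, other replication genes, other mitotic genes, and checkpoint genes with p53 targets) 86 were measured. Among CDK inhibitors 1 of 7 rose with angiotensin II and 1 fell, with a list median of -0.03; of all genes 3.36% rose and 2.76% fell. Between the agents 2 of 7 were higher and 1 lower, beside 4.61% and 6.68%. CDKN1A, which encodes p21, lay at 10.38, 10.28 and 10.29 with DMSO, at 11.14, 11.14 and 11.27 with angiotensin II and at 10.37, 10.46 and 10.36 with torcetrapib. CDKN1B, which encodes p27, went the other way, from 10.39, 10.49 and 10.46 with DMSO to 9.92, 9.86 and 9.998 with angiotensin II, and lay at 10.45, 10.51 and 10.49 with torcetrapib. In both genes the angiotensin II arrays stood alone and the torcetrapib arrays overlapped DMSO. The changes with angiotensin II were 0.87 ± 0.05 and -0.52 ± 0.05 (limma adjusted p = 6.66e-09 and 2.2e-06), and torcetrapib minus angiotensin II gave -0.79 and 0.56 (adjusted p = 2.84e-08 and 1.48e-06). With torcetrapib against DMSO 0 of 7 passed (limma, 1 at an unadjusted p of 0.05), beside 1.16% and 13.3% of all genes. CDKN3, a phosphatase that acts on CDK2, was 0.28 ± 0.05 higher with torcetrapib than with angiotensin II (adjusted p = 0.000799) and lost that call with the index in the model (0.15 ± 0.07, adjusted p = 0.517, range 2.9e-05 to 0.517).

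Among RB, E2F and DREAM complex regulators 2 of 17 rose with angiotensin II (3.36% of all genes) and 0 fell (2.76%). With torcetrapib 0 passed by limma (1.16%). At an unadjusted p of 0.05, 5 passed with torcetrapib (29.4%), 3 higher and 2 lower, beside 13.3% of all genes. The list medians were -0.02 and 0.02. Both genes that rose encode E2F proteins that repress transcription. E2F8 lay at 8.49, 8.26 and 8.58 with DMSO and at 8.92, 8.85 and 9.04 with angiotensin II, a change of 0.49 ± 0.08 (limma adjusted p = 0.00106), and E2F6 changed by 0.35 ± 0.06 (adjusted p = 0.00268). Neither group pair overlapped. E2F8 was also lower with torcetrapib than with angiotensin II (-0.40 ± 0.08, limma adjusted p = 0.00491), without a call when the index was in the model (-0.21 ± 0.13, adjusted p = 0.739, range 7.75e-05 to 0.739).

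Other mitotic genes showed 1 rise and 3 falls among 28 with angiotensin II, beside 3.36% and 2.76% of all genes, with a median of -0.10. Unadjusted p was under 0.05 for 11 lower and 2 higher genes of the 28 (46.4%), beside 16.5% of all genes in either direction. WEE1, the kinase that holds CDK1 inactive, rose by 0.46 ± 0.06 (limma adjusted p = 5.36e-05), from 9.73, 9.80 and 9.74 to 10.26, 10.24 and 10.13. BORA, a cofactor by which Aurora A activates PLK1, had the largest fall, from 7.18, 7.38 and 7.45 with DMSO to 6.36, 6.32 and 6.44 (-0.96 ± 0.09, adjusted p = 3.59e-06), and lay at 7.14, 6.96 and 7.10 with torcetrapib. Both genes stood apart from the other 6 arrays on the angiotensin II arrays. ASPM, a spindle pole protein, fell by 0.25 and KIF23, a kinesin of the central spindle, fell by 0.20 (limma adjusted p = 0.00624 and 0.0231). ASPM had -0.38 and no call without _x_at and _s_at probe sets (adjusted p = 0.135, range 8.24e-05 to 0.135). Dropping any one of DMSO replicates 1 and 2 and angiotensin II replicates 2 and 3 ended the KIF23 call (0.0947, 0.0677, 0.0922 and 0.0613, range 0.00122 to 0.141), and its probe set without the _s_at type gave -1.19. With torcetrapib 0 of 28 passed against DMSO by limma, beside 1.16% of all genes, with a median of -0.08. At an unadjusted p of 0.05, 8 were lower and 0 higher (28.6%), beside 13.3% of all genes in either direction. Torcetrapib minus angiotensin II called 3 of 28 higher and 3 lower, beside 4.61% and 6.68% of all genes. BORA (0.69), SGO1, which protects sister chromatid cohesion (0.46), and INCENP, a scaffold of the Aurora B complex (0.40), were higher, while WEE1 (-0.54), PKMYT1, another kinase that inhibits CDK1 (-0.29), and FZR1, an activator of the anaphase-promoting complex (-0.28), were lower. Among these, PKMYT1 lost its call without angiotensin II replicate 1 or torcetrapib replicate 3 (0.0579 and 0.0649, range 0.000194 to 0.972), SGO1 without torcetrapib replicate 3 (0.0563, range 0.00376 to 0.701) and FZR1 without angiotensin II replicate 1 or 3 or torcetrapib replicate 1 or 3 (0.055, 0.0865, 0.0552 and 0.126, range 0.00249 to 0.899). With the index in the model WEE1 alone of the 6 was still called, though the mean of its probe sets gave -0.20 (adjusted p = 0.0687, range 5.14e-08 to 0.0687), and BORA had 0.54 ± 0.16 (adjusted p = 0.173, range 9.29e-07 to 0.173) and INCENP had 0.31 ± 0.16 (adjusted p = 0.621, range 0.000128 to 0.621).

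Of the other replication genes 1 of 19 was lower with angiotensin II, beside 2.76% of all genes. With torcetrapib against DMSO 0 of 19 were called by limma, beside 1.16%. At an unadjusted p of 0.05, 7 passed with torcetrapib (36.8%), 2 higher and 5 lower, beside 13.3% of all genes. The list medians were -0.05 and -0.04. The fall was of DBF4, the activating subunit of the CDC7 kinase, at -0.23 ± 0.06 (limma adjusted p = 0.0224), a call lost on dropping DMSO replicate 1, DMSO replicate 3 or the second angiotensin II array (0.0873, 0.113 and 0.0971, range 0.00387 to 0.114). GINS4, a subunit of the replicative helicase, was 1.38 ± 0.24 higher with torcetrapib than with angiotensin II (adjusted p = 0.0017). It lay at 7.61, 8.94 and 7.73 with DMSO, at 7.72, 7.29 and 7.82 with angiotensin II and at 8.90, 9.06 and 9.02 with torcetrapib, so that DMSO replicate 2 stood with the torcetrapib arrays, as it did in the index. With the index in the model the difference was 0.24 (adjusted p = 0.87, range 5.12e-07 to 0.87). The primase subunit PRIM1 (0.26) and the histone mRNA binding protein SLBP (0.15) were also higher with torcetrapib than with angiotensin II (adjusted p = 0.017 and 0.0176). PRIM1 lost its call without angiotensin II replicate 2 or any 1 torcetrapib array (0.0647, 0.0707, 0.0629 and 0.0504, range 0.00551 to 0.721), and SLBP without angiotensin II replicate 2 or torcetrapib replicate 2 or 3 (0.0689, 0.051 and 0.0812, range 0.00631 to 0.887).

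The largest changes in the pathway were in checkpoint genes and p53 targets, of which 5 of 15 rose with angiotensin II, beside 3.36% of all genes, and 2 with torcetrapib, beside 0.592%. None fell with either by limma. Unadjusted p was under 0.05 for 7 higher and 2 lower with angiotensin II (60%), beside 16.5% of all genes. With torcetrapib it was so for 3 higher and 1 lower (26.7%), beside 13.3%. The list medians were -0.0047 and 0.04. Changes lay below 0 in 8 and 5 of the 15, where 46.1% and 60.9% of all genes did, so the rise with angiotensin II did not extend to the whole list. GADD45A, a stress protein that can inhibit CDK1, lay at 10.13, 10.08 and 10.09 with DMSO, at 12.11, 11.92 and 11.94 with angiotensin II and at 10.61, 10.74 and 10.74 with torcetrapib. All 3 groups were apart. It rose 3.71-fold with angiotensin II (1.89 ± 0.05, limma adjusted p = 9.52e-13) and 1.51-fold with torcetrapib (0.60 ± 0.05, adjusted p = 1.08e-05). Its relatives GADD45B and GADD45G rose with angiotensin II by 1.91 ± 0.09 and 1.47 ± 0.07 (adjusted p = 4.45e-10 and 1.3e-09) and changed by 0.05 and 0.26 with torcetrapib (adjusted p = 0.861 and 0.109). A probe set of GADD45B that is not of the _s_at type gave a rise of 0.36. PLK2, a Polo-like kinase induced by many stimuli, was at 8.08, 7.93 and 8.13 with DMSO, at 8.98, 8.98 and 9.02 with angiotensin II and at 8.74, 8.79 and 8.72 with torcetrapib. It rose 1.92-fold and 1.63-fold (adjusted p = 7.31e-08 and 1.96e-05). SESN2, a stress-induced inhibitor of mTOR signalling, rose by 0.46 with angiotensin II (adjusted p = 0.00442) and was at 0.00 with torcetrapib. Torcetrapib minus angiotensin II called 5 of the 15 lower and 0 higher, beside 6.68% and 4.61% of all genes. They are the same 5 genes that rose with angiotensin II. This comparison uses the same angiotensin II arrays, so a difference below 0 follows in part from that choice. Adjusted p by limma ran from 1.64e-10 in GADD45A to 0.027 in PLK2. The PLK2 difference of -0.24 lost its call without any 1 of the 6 arrays (0.0529 to 0.0975, range 0.00107 to 0.853). That of SESN2, at -0.46, was lost with the index in the model (-0.21 ± 0.14, adjusted p = 0.753, range 1.56e-05 to 0.753). The lists were chosen with earlier results of these samples known, so their counts are no independent evidence.

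**Figure D4:**
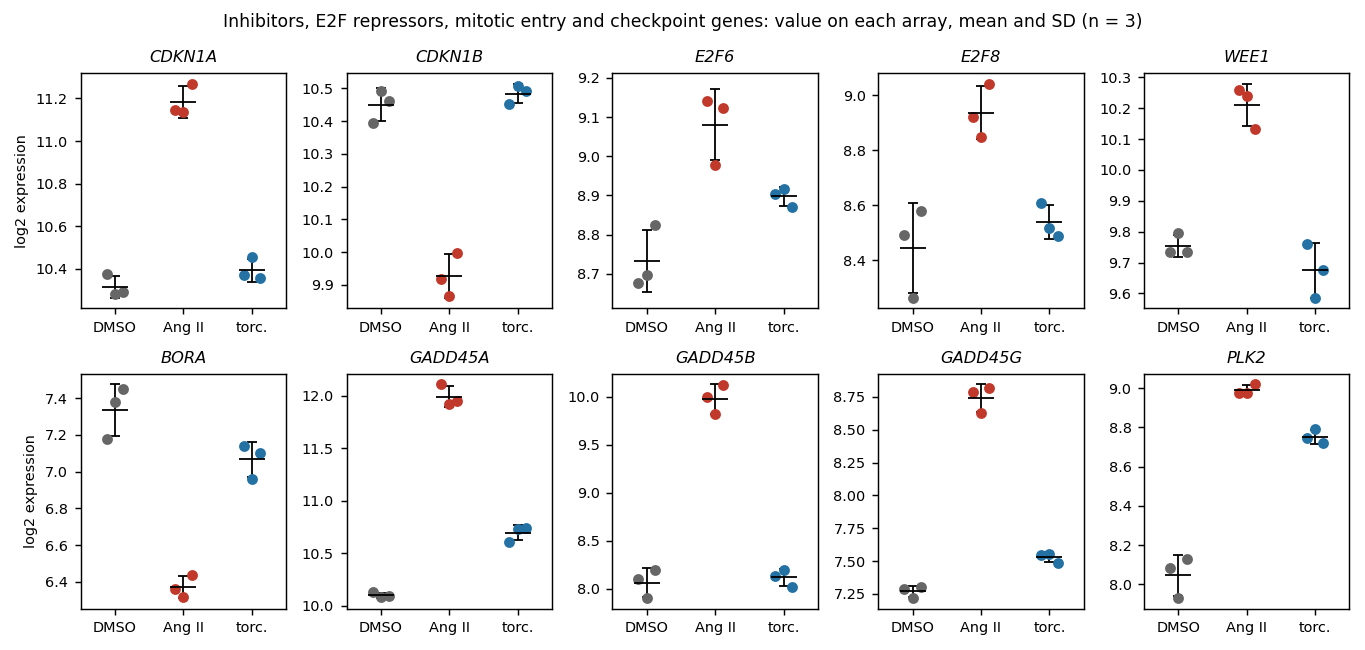
Log2 expression of 10 regulators outside the 45 members on each array, with the mean and SD of 3 arrays for DMSO, angiotensin II (Ang II) and torcetrapib (torc.). Axes do not start at 0. Angiotensin II stands apart from the other groups in all 10 genes, and torcetrapib stands above DMSO without overlap in E2F6, GADD45A, GADD45G and PLK2.

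The dimmer probe sets of the members gave another picture of torcetrapib than the brightest ones. The 45 members have 102 probe sets with 1 symbol, so 57 were not used above, and 47 of these lay above the dim limit. Between torcetrapib and angiotensin II 17 of the 47 were higher (36.2%) and 3 lower, by limma with adjustment over all probe sets, where 15.3% and 4.06% of the dimmer probe sets of all genes were. Against DMSO, torcetrapib called 1 of the 47 higher and 1 lower, beside 1.82% and 0.23% of those of all genes. They were a probe set of CDK6 with a change of 0.63 (limma adjusted p = 0.0224) and one of TOP2A with -0.17 (adjusted p = 0.0425). The brightest probe sets of these genes changed by -0.14 and 0.11, without a call. Angiotensin II called 0 in either direction by limma, beside 2.48% higher and 1.56% lower. At an unadjusted p of 0.05, 14 were lower and 0 higher (29.8%), beside 17.3% of those of all genes in either direction. The 17 belonged to 14 genes, and their differences ran from 0.28 to 1.99, against 0.01 in the brightest probe set of MCM4, which had the 1.99. The genes named here were chosen after their values were seen.

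A dimmer probe set of MCM4, a helicase subunit, lay at 7.45, 9.46 and 7.88 with DMSO, at 7.46, 7.19 and 7.86 with angiotensin II and at 9.37, 9.50 and 9.60 with torcetrapib. The brightest one lay between 10.64 and 10.78 on all 9 arrays. In BUB1 a dimmer probe set had 7.22, 8.39 and 7.83 with DMSO, 7.08, 6.97 and 7.44 with angiotensin II and 8.55, 8.59 and 8.59 with torcetrapib. In CDK2, the partner of E-type cyclins, such a probe set had 9.11, 10.14 and 9.61, then 9.29, 9.02 and 9.36, then 10.11, 10.31 and 10.37. In all 3 genes DMSO replicate 2 lay near or among the torcetrapib arrays and far above DMSO replicate 1. The same 3 probe sets changed against DMSO by 1.22, 0.76 and 0.64 with torcetrapib, and none was called (adjusted p = 0.153, 0.128 and 0.143).

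The order of the 3 DMSO arrays was set beside that of their index of RNA integrity. In 13 of the 17 probe sets that were higher with torcetrapib than with angiotensin II, the DMSO arrays stood in the order of their index (replicate 1 lowest, replicate 3 next, replicate 2 highest), and in 0 in the opposite order. Among the 30 dimmer probe sets not called higher 8 had the order of the index and 6 the opposite one. Among the brightest probe sets of the 44 members above the dim limit 10 had that order (22.7%) and 6 the opposite one (13.6%). For the brightest probe sets of all genes above that limit the shares were 10.4% and 16.4%. For the dimmer probe sets of all genes that were higher with torcetrapib the order was found in 69.5%, and for those of all genes regardless of change in 23.3%. These probe sets share the same 3 arrays and are not independent, and the part of RNA integrity in the differences was not tested. Where the probe sets lie on their transcripts was not analysed here.

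**Figure D5:**
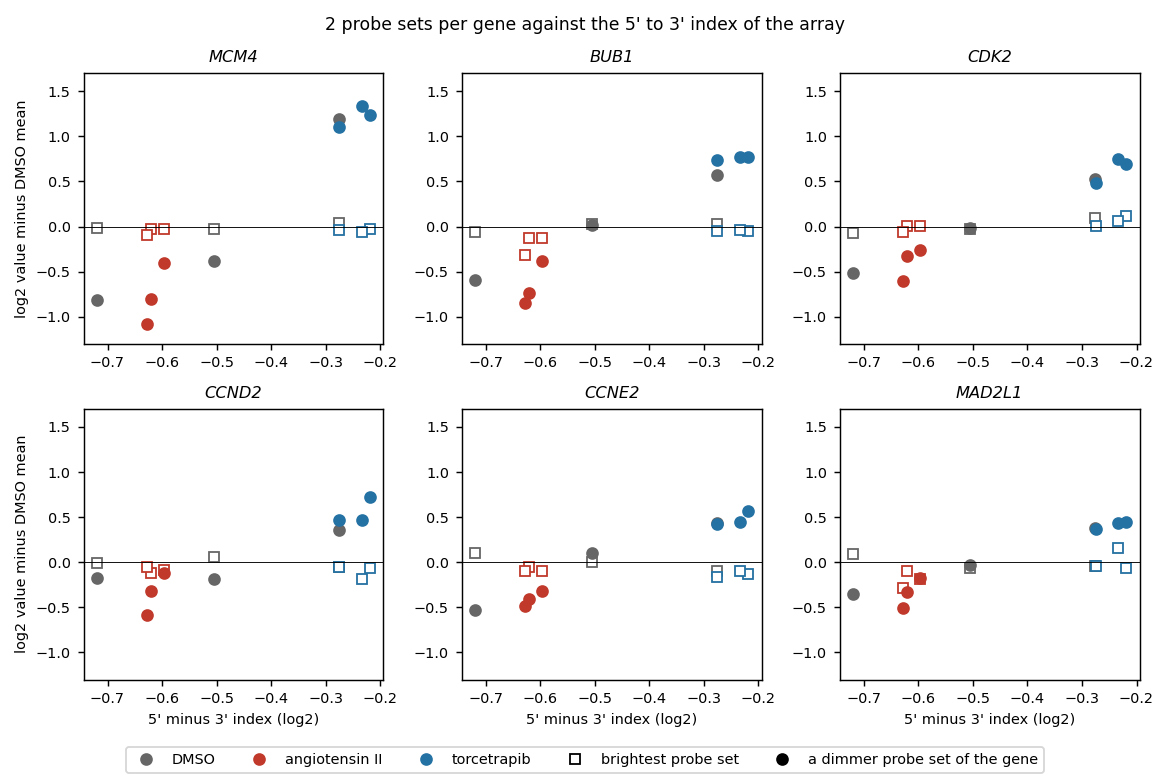
Log2 value minus the DMSO mean of the same probe set (vertical) against the integrity index, array by array (horizontal), for 6 members, with the brightest probe set as open squares and a dimmer one as filled circles, 9 arrays each. The dimmer one shown is that with the largest torcetrapib minus angiotensin II difference in its gene. Its height on the torcetrapib arrays over those with angiotensin II follows from that choice. Other dimmer probe sets of the same genes can differ: those of CCND2 gave 0.17 and -0.55. The brightest probe sets stay near 0. On DMSO replicate 2, at an index of -0.28, the dimmer ones shown are higher than on the other DMSO arrays.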

How the data were processed

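The authors deposited log2 expression per probe set, and the submitters' processing notes name RMA (robust multi-array averaging) for it. Which program ran it, with which probe grouping, is not given in the sources used here. No 2 arrays were copies of each other, but each pair held identical values in 2.51% to 4.11% of the probe sets with 1 symbol. Such ties can narrow the spread within a group.

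No further normalisation was applied. Of 54675 probe sets 41091 had 1 gene symbol, 1801 several, 11721 none and 62 were controls; only the first were used, and each of 19775 genes was read by its brightest. One limma 3.58.1 model in R 4.3.3, with 3 group means and an intensity trend, was fitted to all genes on 9 arrays (6 residual degrees of freedom). Two-sided p-values were adjusted with the Benjamini-Hochberg method across the 19775 genes in each comparison, and 0.05 was the threshold. A change written ± carries a standard error, and 95% intervals are unadjusted. Both treatments were compared with the same DMSO arrays.

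Values on every array are given for members called in any of 3 comparisons, for the 5 with the largest change in each, and for the brightest and dimmest of each phase. Listed pathway genes are named where called, at most 10 a list. Members and lists were chosen with earlier results of these data known. Alternatives were other variance moderation, a filter on dim genes, centring, quantile normalisation, other probe sets, array weights, fewer samples, the index as a covariate, a looser threshold and each array left out. Tested on simulated data with 50 genes at each fold, over 19775 genes, the angiotensin II comparison found 12 at 1.2-fold and 43 at 1.5-fold, and the torcetrapib comparison 9 and 44. Each simulated gene varied on its own, with no effect shared by the genes of an array. Only 200 genes were changed, where the data gave 1210 calls with angiotensin II, so the rates in the data can differ.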

Additional observations from a re-analysis of the deposited data

How the results depend on the processing

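Counts of called genes moved with the processing far more than medians did. The 4 members called with angiotensin II became 8 at an adjusted p of 0.1, 2 without the intensity trend, 8 after quantile normalisation, 10 with array weights and 2 with only both groups in the fit. The 1 member called with torcetrapib became 4 at 0.1, 0 without the trend, 5 after quantile normalisation, 2 without _x_at and _s_at probe sets and 7 with array weights. The 9 that differed between the agents became 5 without the trend, 5 with arrays centred on medians, 16 with the mean of probe sets, 15 with array weights and 2 with the index as a covariate, LMNB1 and TOP2A. Over all genes, the 1210 calls with angiotensin II became 2712 with array weights. The 229 with torcetrapib became 503 at 0.1, 50 without the trend, 120 with centring (79 higher), 507 after quantile normalisation (171 higher), 108 with the mean of probe sets, 136 without _x_at and _s_at, 1272 with array weights, 145 with only both groups and 76 with the index. The 2232 between the agents became 6216 with array weights and 280 with the index.

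The mean of all probe sets moved 3 medians: G2/M members with angiotensin II to -0.14, G1/S members with torcetrapib to 0.0015 and G2/M members between the agents to 0.13. It also turned the torcetrapib change of E2F2 to 0.0052. Leaving out each of 9 arrays in turn gave 3 to 5 members with angiotensin II, 0 to 6 with torcetrapib (6 without DMSO replicate 2) and 5 to 11 between the agents. Over all genes it gave 956 to 1171, 83 to 917 and 1351 to 2653. The G2/M median with angiotensin II then ran from -0.12 to -0.061. The causes were not tested. Changes of single members kept direction and side of the threshold in 293 of 358 alternative values and those of pathway genes in 582 of 639. No paired analysis was possible because the labels give the groups no shared replicate numbers. Signal over background limits CCND1, the only dim member.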
